A study of Mus musculus with 16 samples.

Results

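Zhx2-low livers were 4 of 16 mouse livers in which the transcript of Zhx2, a zinc finger and homeobox protein, was nearly missing, and they were set against 4 Zhx2-normal livers of the same 2 genotypes. The livers came from female mice aged 5 months, and poly(A)-selected RNA of each liver was sequenced as 1 library. There were 4 livers for each of 4 genotypes, which were heterozygous deletion of Ncoa5 (Ncoa5+/-), of Tip30 (Tip30+/-) or of both, and wild type. Of the 8 Ncoa5+/- and wild-type livers, those with a Zhx2 value under 30 normalized counts formed the low set (Ncoa5+/- 1 and 4, wild type 1 and 2). Those with 30 or more formed the normal set (Ncoa5+/- 2 and 3, wild type 3 and 4). The 8 livers with Tip30+/-, 4 of them also Ncoa5+/-, took no part in the choice. A normalized count is the number of reads of a gene divided by a size factor of its library, so levels are compared between livers and not between genes.

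The sets were chosen by a measured transcript, not by a label, so differences between them are a description with no test. The labels name no strain and give no reason for the split. Both sets hold 2 livers of each genotype, so the Ncoa5 genotype is balanced over them. No promoter or Cre that would limit a deletion to 1 cell type is named in the labels, nor is the deleted stretch of either gene.

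Zhx2 encodes a transcriptional repressor best known in mouse liver, where it takes part in silencing fetal genes after birth. Alpha-fetoprotein (Afp), the noncoding RNA H19 and glypican 3 (Gpc3) are known to stay high when it is lacking. It is also known to act on lipoprotein lipase (Lpl), the fatty acid elongase gene Elovl3 and the major urinary proteins (Mups), which are made in liver, excreted in urine and carry pheromones. Many of these genes also differ between male and female liver.

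Zhx2 (ENSMUSG00000071757, GRCm38 chromosome 15, 57694665 to 57839832) had 13.5 and 8.77 normalized counts in livers Ncoa5+/- 1 and 4, and 19.4 and 26.3 in wild type 1 and 2. In the normal set it stood at 238 and 207 in Ncoa5+/- 2 and 3 and at 438 and 204 in wild type 3 and 4. Wherever 4 values of a set are given, they stand in this order of livers. The liver just inside the limit was wild type 2 at 26.3 and the one just outside it was wild type 4 at 204. None of the 8 livers lay between these values. The 8 Tip30+/- livers held 167 to 431, with a median of 272, so all of them lay above the limit. In reads, the low set held 65 Zhx2 reads in all and the normal set 1138.

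**Figure D1:**
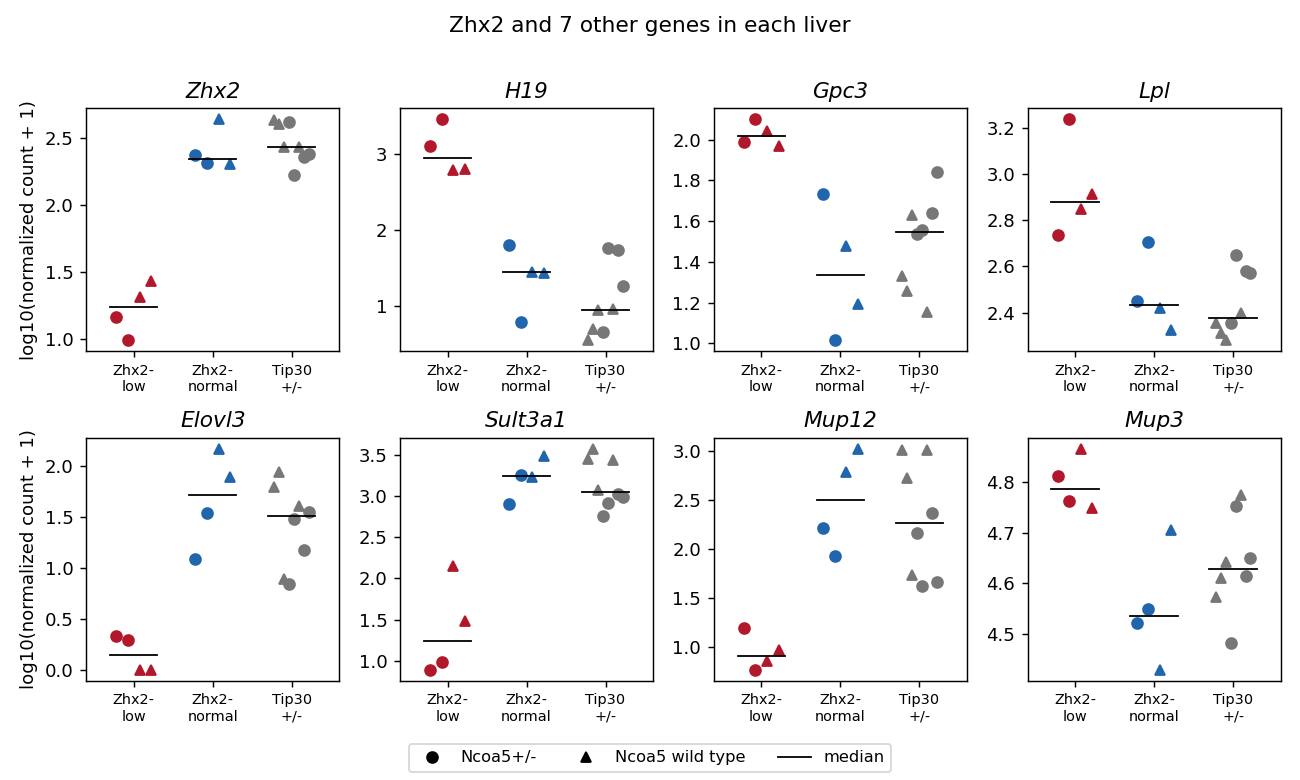
Each panel shows 1 gene as log10 of the normalized count plus 1 in every liver, by set, with circles for Ncoa5+/-, triangles for Ncoa5 wild type and a line at the median. Zhx2 was at most 26.3 in the low set and at least 204 in the normal set, and H19, Gpc3, Lpl, Elovl3, Sult3a1, Mup12 and Mup3 also stood apart in the 2 sets.

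Libraries of the low set held 26058724 to 29496680 reads and those of the normal set 27360939 to 37939978. Mitochondrial genes took 3.42% to 5.65% of reads in the low set and 3.43% to 5.57% in the normal set. Loci that collect ribosomal RNA reads (Gm42418, Gm26917, AY036118, CT010467.1, Mir6236 and Lars2, chosen after their values were seen) took 0.196% to 0.710% in the low set and 0.0792% to 0.219% in the normal set. Of these loci CT010467.1 and Mir6236 differed between the sets with no overlap, by log2 2.07 ± 0.55 and 1.91 ± 0.30. In the Tip30+/- livers the loci took 0.112% to 1.22%. Mouse tag numbers also moved with the sets, with 3 low livers and 1 normal liver under 4300 and 1 low liver and 3 normal livers above. With the tag range added to the fit, 230 genes were counted between the sets by the measure given below, in place of 239. The no-overlap part of that measure does not use the term. The part of these loci and of the tags in the differences was not tested further. Htatip2, the gene of Tip30, ran from 685 to 1088 in the 8 livers labelled Tip30+/- and from 1835 to 2910 in the 8 livers compared here. Ncoa5 ran from 339 to 411 in the 4 Ncoa5+/- livers compared here and from 380 to 480 in the 4 wild-type livers, so its reads overlapped and do not check that label.

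The comparison of the sets covered 15207 genes with a mean of at least 10 over the 8 livers. A gene was counted when the 4 livers of one set all lay above the 4 of the other and the fitted difference was at least 2-fold, with the Ncoa5 genotype as an added term. By this measure 133 genes (0.875% of those tested) were higher and 106 (0.697%) were lower in the low set, Zhx2 included. The lower genes differed by more, with a median log2 difference of -2.27 against 1.51 for the higher ones. A difference of over 16-fold was seen in 23 of the lower and 11 of the higher genes. Copies that may share reads enter these numbers as separate genes. Of the 106 lower genes 18 are Mup genes or pseudogenes of 1 cluster, and 10 Mup genes are among the 23. The 11 higher genes include the copies Amy2a2, Amy2a3, Amy2a4 and Amy2a5. Without the size limit 393 genes (2.58%) were higher and 368 (2.42%) lower with no overlap. The same measure applied to the labelled genotypes of these livers, Ncoa5+/- against wild type, counted 201 genes (1.32%). As counts alone, with an adjusted p under 0.05 as the limit, limma called 90 genes higher (0.592%) and 92 lower (0.605%), 182 in all (1.2%), edgeR 171 (1.12%) and DESeq2 453 (2.98%). Counts within gene lists are likewise a description, since the rule used this contrast. Leaving out 1 liver, which loosens the no-overlap rule, gave 247 to 429 counted genes in place of 239. The most came without Ncoa5+/- 2, a normal liver.

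Of 5 genes long known as Zhx2 targets in mouse (Afp, H19, Gpc3, Lpl and Elovl3), 3 were higher, 1 was lower and Afp was not counted. The imprinted noncoding RNA H19 (ENSMUSG00000000031, chromosome 7, 142575529 to 142578143) stood at 1267, 2885, 615 and 648 in Ncoa5+/- 1 and 4 and wild type 1 and 2. In Ncoa5+/- 2 and 3 and wild type 3 and 4 it stood at 62.1, 5.21, 27.1 and 26.7. The lowest H19 value of the low set was above every value of the normal set and of the 8 Tip30+/- livers, whose highest was 56.4. The fitted log2 difference was 5.55 ± 0.84 (SE, n = 4 livers per set).

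Gpc3, a cell-surface proteoglycan gene of fetal liver and liver tumours, stood at 96.9, 125, 109 and 92.5 in the low set, against 53, 9.37, 29 and 14.6 in the normal set (log2 2.23 ± 0.46). Lpl, the enzyme that releases fatty acids from circulating triglyceride, stood at 543, 1731, 704 and 817 in the low set. It stood at 281, 506, 261 and 211 in the normal set, so Ncoa5+/- 1 of the low set and Ncoa5+/- 3 of the normal set came closest (log2 1.52 ± 0.37). The highest Lpl value of the Tip30+/- livers was 444, below all 4 low livers.

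Elovl3, which elongates very long chain fatty acids, was at 1.13, 0.974, 0 and 0 in the low set, or 2 reads in all. In the normal set it was at 11.2, 33.3, 145 and 76.5. The ratio of its pooled reads, low over normal after scaling, was 0.00757 with a 95% counting interval of 0.000912 to 0.0276. That interval covers counting error alone and not the spread between livers.

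Afp, the serum protein of fetal liver, differed in opposite directions in the 2 genotypes. It stood at 567 and 1501 in the low Ncoa5+/- livers, against 190 and 172 in the normal Ncoa5+/- livers. In wild type it stood at 100 and 91.5 in the low livers, against 168 and 124 in the normal livers. The Tip30+/- livers held 161 to 225. The set-by-genotype interaction of Afp was 2.93 ± 0.56 (limma, unadjusted p = 0.000623, adjusted p = 0.769), so it did not pass over all genes.

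Other genes stood far higher in the low set, with normal-set levels at or near 0 for Iqca and up to 106 for Hsd3b5. Iqca, which encodes a protein with an IQ motif and an AAA domain, stood at 93.5, 71.1, 81.8 and 66.3 in the low set, against 1.02, 1.04, 0 and 0 in the normal set. With 2 Iqca reads in the whole normal set, the ratio of pooled reads was 162 (95% counting interval 44.6 to 1347). The Tip30+/- livers held at most 0.867 of Iqca, so all 12 livers outside the low set were at or near 0.

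Sdk1, a cell adhesion gene, stood at 122, 192, 224 and 195 in the low set, against 13.2, 3.12, 8.43 and 8.6 in the normal set (log2 4.39 ± 0.37). Lrrc66, a leucine-rich repeat gene, stood at 92.4, 83.8, 118 and 81 in the low set, against 9.16, 5.21, 0.936 and 3.44 in the normal set (log2 4.28 ± 0.43). The highest value in a Tip30+/- liver was 8.34 for Sdk1 and 5.83 for Lrrc66. Neither gene came near its low-set level in any of the 12 other livers.

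Hsd3b5, a steroid-metabolizing enzyme gene that is known for its higher level in male mouse liver, stood at 567, 765, 1709 and 512 in the low set. It stood at 83.5, 71.8, 14 and 106 in the normal set (log2 3.81 ± 0.75). Snx20, a sorting nexin gene, stood at 830, 515, 229 and 208 in the low set, against 44.8, 45.8, 35.6 and 9.46 in the normal set (log2 3.65 ± 0.35). The calcium-binding protein gene S100g and the RNA-binding protein gene Mbnl3 differed by 3.04 ± 0.40 and 2.85 ± 0.35 on the log2 scale.

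The pancreatic amylase genes Amy2a2, Amy2a3 and Amy2a4 had identical values in each liver and Amy2a5 nearly so, and the copies cannot be told apart. Amy2a5 stood at 77.7, 140, 8.18 and 31.5 in the low set, against 4.07, 0, 0 and 0 in the normal set. Among 7 pancreas markers 5 were in the table and 1 passed the filter on low values, Cela1, which was not counted (log2 -0.54 ± 0.12). The summed level of the pancreas markers was 625 to 782 in the low set and 782 to 1191 in the normal set. Nearly all of it was Cela1, at 619 to 782 and 781 to 1188, so the sum says little of the other markers.

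**Figure D2:**
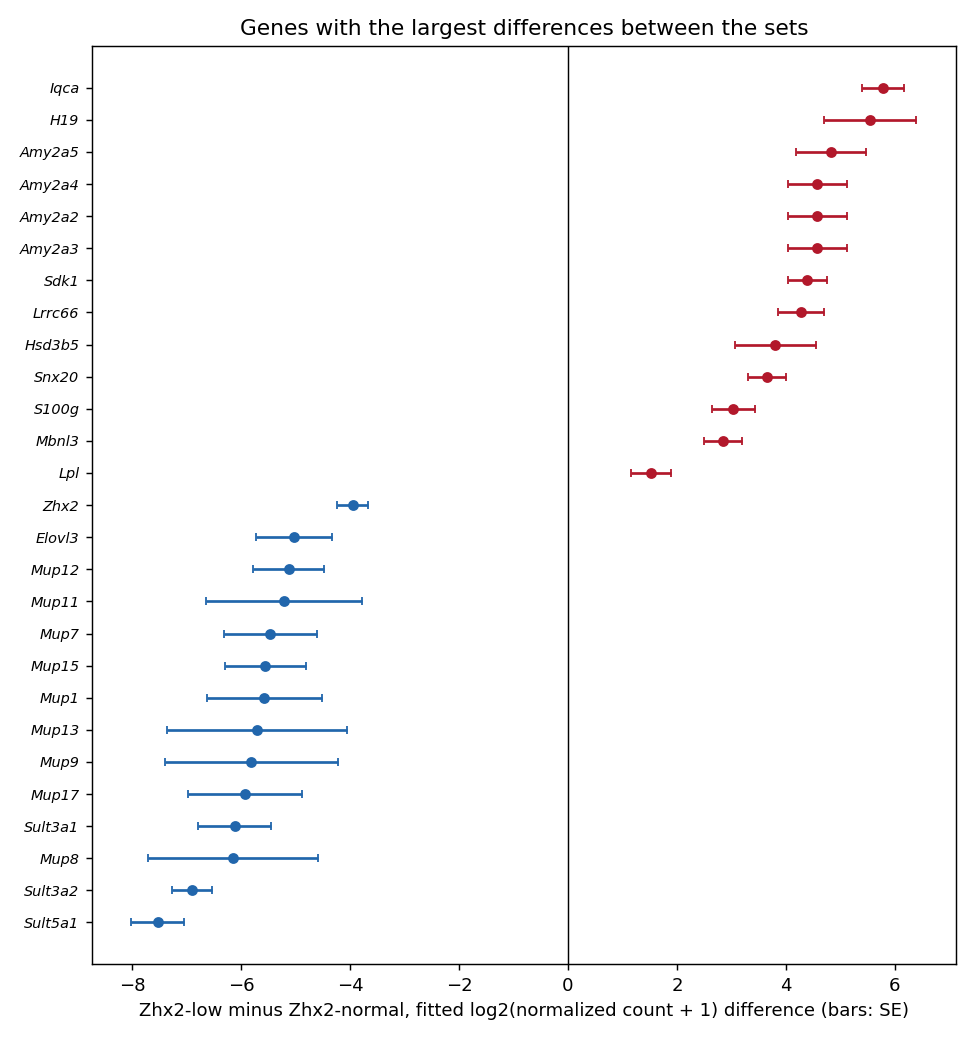
Fitted log2 difference, low minus normal, of the 12 counted genes furthest up, the 12 furthest down (each averaging at least 50 in its higher set, pseudogenes and predicted genes left out) and the markers Zhx2, H19, Lpl, Elovl3 and Mup12, with bars for the SE. The lower end is mostly sulfotransferase and Mup genes, from -5.13 for Mup12 to -7.52 for Sult5a1, and the upper end reaches 5.78 for Iqca.

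Sulfotransferase genes were among those furthest down. Sult5a1 (chromosome 8, 123140192 to 123158315) stood at 2.25, 0, 2.05 and 1.05 in the low set, against 398, 132, 863 and 506 in the normal set (log2 -7.52 ± 0.49). Sult3a1, which is known for its high level in female mouse liver, stood at 6.76, 8.77, 142 and 29.4 in the low set, against 795, 1804, 1711 and 3080 in the normal set (log2 -6.11 ± 0.67). Its neighbour Sult3a2 had 3 reads in the whole low set and stood at 76.4, 179, 245 and 370 in the normal set. The ratio of the pooled Sult3a2 reads, low over normal, was 0.00347 (95% counting interval 0.000714 to 0.0102). Sult3a1 and Sult3a2 are similar in sequence, so the division of reads between them is uncertain. In the Tip30+/- livers Sult5a1 ran from 16.7 to 610, Sult3a1 from 570 to 3772 and Sult3a2 from 47.6 to 501.

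Most Mup genes were lower in the low set, and the copy with the most reads was not. Of 28 Mup genes and pseudogenes tested, in 1 cluster on chromosome 4 (60066469 to 62150863), 18 were counted as lower and 0 as higher. Over all genes tested 0.697% were counted as lower. In a list of 22 Mup genes, 17 passed the filter on low values, 10 of these were counted as lower, and the median log2 difference was -5.46. Mup12 stood at 14.6, 4.87, 6.14 and 8.41 in the low set, against 165, 84.3, 611 and 1057 in the normal set (log2 -5.13 ± 0.65). Mup15 stood at 27, 20.5, 15.3 and 42.1 in the low set, against 261, 669, 4877 and 2400 in the normal set (log2 -5.55 ± 0.74). The 10 counted Mup genes together held 297, 86.7, 49.1 and 161 in the low set, against 2869, 2114, 14737 and 20757 in the normal set.

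The 7 Mup genes of the list that were tested and not counted were of 2 kinds by their values. Mup2, Mup10, Mup14 and Mup18 differed by -5.33 to -5.89 on the log2 scale, but Ncoa5+/- 1 of the low set lay above Ncoa5+/- 3 of the normal set. Mup10, for example, stood at 94.6, 2.92, 6.14 and 13.7 in the low set, against 1014, 58.3, 267 and 6532 in the normal set. Mup3, Mup20 and Mup21 differed little, with log2 differences of 0.82 ± 0.19, -0.30 ± 0.33 and -0.52 ± 0.26. Mup3 stood at 64874, 57889, 73427 and 56205 in the low set, against 33168, 35470, 26855 and 50854 in the normal set, so it was higher with no overlap but by less than 2-fold.

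The Mup copies are known to be near repeats of each other, and the deposited counting may have divided reads among them, so the level of a single Mup gene is uncertain.

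Over all genes tested 0.697% were lower and 0.875% higher in the low set. Among female-biased liver genes, 4 of 28 tested were lower and 1 was higher. The lower ones were Sult3a1, Sult3a2 and the steroid hydroxylase genes Cyp3a41a and Cyp3a41b, which are near-identical copies. Cyp3a41a stood at 27753, 12039, 14547 and 11824 in the low set, against 44079, 34142, 79085 and 52934 in the normal set (log2 -1.69 ± 0.34). The higher one was Prom1, the gene of the membrane protein prominin (log2 1.08 ± 0.25). Among male-biased liver genes, 3 of 21 tested were lower (Sult5a1, Elovl3 and Slco1a1) and 1, Hsd3b5, was higher. Slco1a1, an organic anion uptake transporter, stood at 60.8, 55.5, 59.3 and 65.2 in the low set, against 731, 1297, 198 and 1799 in the normal set (log2 -3.64 ± 0.69). Lower genes therefore came from both lists. The median log2 difference was 0.09 over the female-biased and -0.05 over the male-biased genes tested, against -0.00079 over all genes tested.

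None of 18 tested genes of growth hormone signalling, STAT5 and IGF1 was counted, which at 1.57% over all genes is near the background. Their median was -0.17. The member furthest down was Igfbp2 of an IGF-binding protein (log2 -1.35 ± 0.45), at 16751 and 25891 in the low Ncoa5+/- livers and 3495 and 6570 in the low wild-type livers, against 23456 to 29778 in the normal set. The receptor gene Egfr differed by -0.72 ± 0.14.

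Several lower genes outside these families encode enzymes. They were chosen after their values were seen. The oxidase gene Nox4 had 3 reads in the whole low set and stood at 22.4, 33.3, 77.7 and 71.4 in the normal set. Enpp2, the gene of autotaxin, stood at 63.1, 497, 92 and 70.5 in the low set, against 546, 1047, 759 and 810 in the normal set. Ncoa5+/- 4 of the low set held by far the most Enpp2 of that set. Ugt3a1, a sugar transferase gene, stood at 213, 407, 715 and 624 in the low set, against 1593, 2420, 4081 and 4159 in the normal set (log2 -2.68 ± 0.20).

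Among higher genes chosen in the same way, Grb10, an imprinted adaptor of growth factor receptors, stood at 412, 606, 901 and 843 in the low set, against 133, 107, 167 and 133 in the normal set (log2 2.30 ± 0.17). The highest Grb10 value in a Tip30+/- liver was 133. The sulfotransferase gene Sult1c2 stood at 1183, 932, 979 and 1019 in the low set, against 220, 255, 347 and 324 in the normal set (log2 1.86 ± 0.14). The kinase gene Src stood at 452, 424, 255 and 246 in the low set, against 178, 137, 97.4 and 59.3 in the normal set (log2 1.59 ± 0.18).

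The counts in lists of lipid and drug metabolism stand beside 1.57% counted over all genes tested. In lipoprotein and lipid uptake 1 of 29 tested was counted, Lpl, and in fatty acid synthesis and elongation 1 of 26, Elovl3. Fitm1, a gene of lipid droplet formation, was lower (log2 -1.70 ± 0.30), as 1 of 12 in its list. Acot1, an acyl-CoA thioesterase gene, was lower (log2 -1.08 ± 0.18), as 1 of 26 genes of fatty acid oxidation. None of 21 genes of cholesterol synthesis was counted. Of 30 xenobiotic enzyme genes Cyp2c40 was higher (log2 1.16 ± 0.21) and Aldh1a1 lower (log2 -1.12 ± 0.19).

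Bhlhe41, a repressor of the circadian clock, was the only one of 18 clock genes counted. It stood at 11.3, 19.5, 24.5 and 34.7 in the low set, against 87.6, 88.5, 189 and 98 in the normal set (log2 -2.34 ± 0.29). Of the acute phase and type I interferon lists, Saa3 (log2 1.68 ± 0.20, 1 of 23) and Ifi44 (log2 1.85 ± 0.24, 1 of 28) were higher. None of 21 p53 targets, 26 cell cycle genes, 16 pericentral genes or 12 periportal genes was counted, which at 1.57% over all genes is near the background. Of the p53 targets, 14 rose in Ncoa5+/- in the genotype test given below. Both sets hold both genotypes, so such genes could hardly be counted whatever their difference between the sets. The median log2 difference between the sets was 0.26 for the p53 targets and 0.45 for the cell cycle genes. It was -0.21 for the pericentral and 0.10 for the periportal genes. Mcm6 and Mki67, the cell cycle members furthest from 0, ran from 83.8 to 422 and from 110 to 224 in the low set. Ncoa5+/- 2 of the normal set held 878 and 291, and the other normal livers 23.2 to 66.6 and 43 to 64.5.

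The fetal liver and tumour list had 3 of 13 tested members higher, beside 0.875% of all genes tested. They were H19, Gpc3 and Prom1, and the median of the list was 0.46. Of 20 listed members 7 did not pass the filter on low values.

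Among markers of liver cell types and blood cells, 1 of 3 neutrophil and 1 of 8 endothelial genes tested were counted, beside 1.57% of all genes tested. Of 7 listed neutrophil markers only these 3 passed the filter on low values, with a median log2 difference of 0.87. None of 8 hepatocyte, 12 macrophage, 10 lymphocyte, 8 stellate, 6 cholangiocyte, 2 adipocyte or 4 erythroid markers tested was counted. The neutrophil granule gene Ngp was higher (58.6, 17.5, 14.3 and 8.41 in the low set, against 5.09, 3.12, 5.62 and 0 in the normal set), and the summed neutrophil markers ran from 74.7 to 244 in the low set and from 39.6 to 83.3 in the normal set. The endothelial gene Lyve1 was higher (log2 1.38 ± 0.31), while its list summed to 4633 to 8809 in the low set and 4138 to 7378 in the normal set. Summed hepatocyte markers ran from 2471670 to 3084140 in the low set and from 2223700 to 3280130 in the normal set. In bulk tissue, fewer cells of a type and less RNA per cell cannot be told apart.

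Most genes around Zhx2 stood at similar levels in the 2 sets. Of 42 other genes tested within 5 Mb, 1 was counted, Enpp2, and 32 differed by less than 0.5 on the log2 scale. The median of the 42 genes was 0.01. The related gene Zhx1, which lies near Zhx2, differed by 0.09 ± 0.15, and the third family member Zhx3 by 0.06 ± 0.12. By chromosome, counted genes made up 3.36% of those tested on chromosome 4, where the Mup cluster lies, and 3.10% on X, against 1.57% overall.

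**Figure D3:**
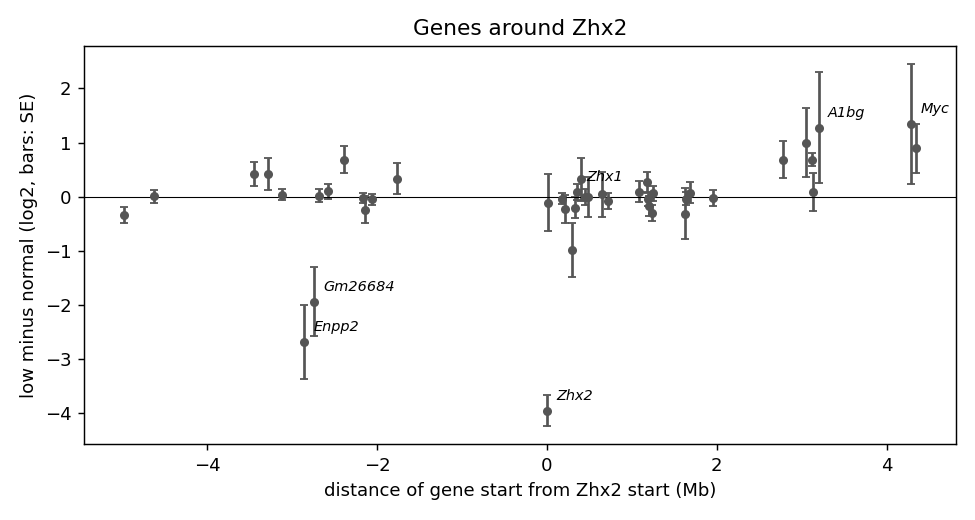
Fitted log2 difference, low minus normal, with its SE, of each gene tested within 5 Mb of Zhx2, against the distance between gene starts. Zhx2 lies at -3.95 and Enpp2 at -2.68, while 32 of the 42 other genes lie within 0.5 of 0.

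Within Ncoa5+/- alone the counted higher genes had a median log2 difference of 1.44 and within wild type alone 1.71. For the counted lower genes these medians were -2.03 in Ncoa5+/- and -2.26 in wild type. Of the 239 counted genes, 153 differed by less in Ncoa5+/- than in wild type, among them the 10 counted Mup genes, which are near repeats. The share over all genes was not taken. In wild type both low livers had tags under 4300 (4252 and 4253) and both normal livers tags above it (4361 and 4382). In Ncoa5+/- each set held both tag ranges (low 4251 and 4383, normal 4254 and 4358). The wild-type difference therefore cannot be told apart from tag range, nor can its contrast with Ncoa5+/-. Mup12 differed by -3.63 in Ncoa5+/- and -6.62 in wild type, and its interaction did not pass (limma adjusted p = 0.799). The uncounted Mup3 (0.84 in Ncoa5+/- and 0.80 in wild type), Mup20 (-0.58 in Ncoa5+/- and -0.03 in wild type) and Mup21 (-0.57 in Ncoa5+/- and -0.47 in wild type) differed by more in Ncoa5+/-. Among livers with tags under 4300 the medians were 1.27 and -2.07, and above it 1.71 and -2.07. With 1 liver of a set in each tag range, these have no replicate check. The sign within a genotype or tag range is fixed by the way genes were counted.

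**Figure D4:**
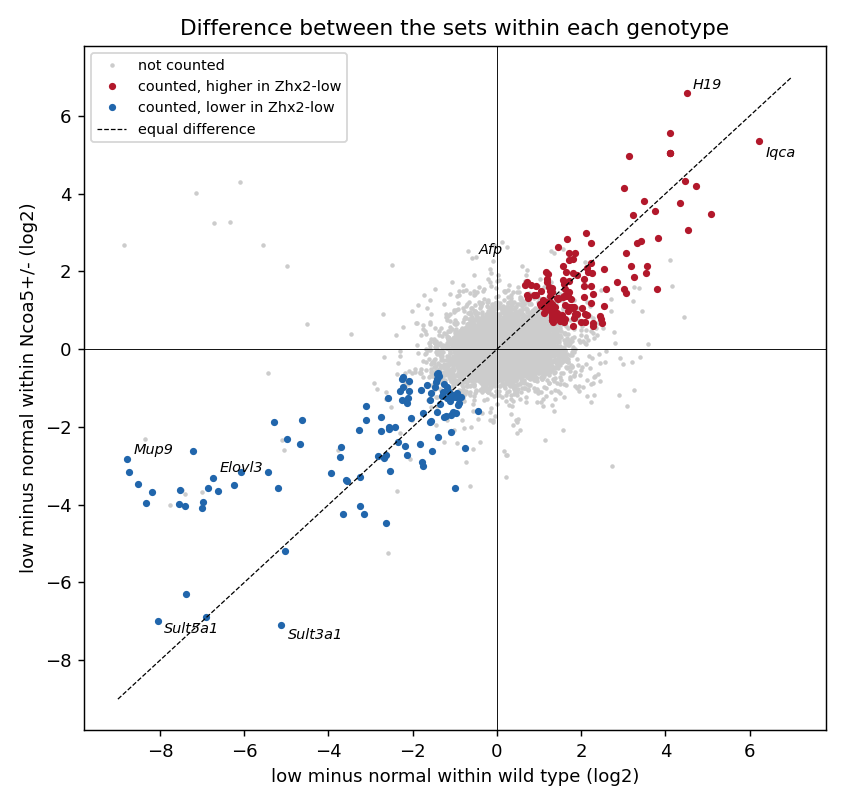
Low minus normal on the log2 scale within Ncoa5+/- (vertical) and within wild type (horizontal), for 15207 genes, with counted genes in colour and a dashed line of equal difference. H19 lies at 6.59 in Ncoa5+/- and 4.50 in wild type, Mup9 at -2.84 in Ncoa5+/- and -8.78 in wild type, and Afp has opposite signs in the 2 genotypes.

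Whether the difference between the sets depended on the genotype was tested by the interaction, which the rule did not use. In limma 0 of 15207 genes passed at an adjusted p under 0.05, while 942 (6.19%) had an unadjusted p under 0.05. By edgeR 0 passed and by DESeq2 37. In wild type the tag range went with the sets, so an interaction fitted without a tag term cannot be told apart from tag range. With that term limma also passed 0. Leaving out Ncoa5+/- 1 gave 10 genes, among them Afp and 5 crystallin genes of the eye lens, leaving out wild type 4 gave 3, and leaving out wild type 1 gave 1, Pttg1. Each of these fits leaves 1 liver alone in its set and genotype, and that liver is assumed to vary like the others. Among the genes of smallest p were Pcp4l1 (1.88 ± 0.25, limma adjusted p = 0.181), Spry4 (2.23 ± 0.35, 0.481) and the pseudogene Mup-ps12 (5.05 ± 0.81, 0.492), none of which passed in limma.

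The labelled genotype was tested with the Zhx2 set as a term. In limma 85 genes (0.559%) rose and 14 (0.0921%) fell in Ncoa5+/- against wild type, 99 in all (0.651%), with 81 (0.533%) by edgeR and 355 (2.33%) by DESeq2. Without the Zhx2 term limma called 56, of which 55 were among the 99. Leaving out wild type 2 gave 48 genes, wild type 1 gave 52 and wild type 3 gave 54, and leaving out Ncoa5+/- 1 or 3 gave 61 or 62. The cell cycle inhibitor gene Cdkn1a had 3382, 2244, 1434 and 1785 in Ncoa5+/- 1, 4, 2 and 3, against 117, 130, 62.7 and 73.1 in wild type 1, 2, 3 and 4. It rose by 4.51 ± 0.15 on the log2 scale (limma adjusted p = 1.13e-07). The wild-type livers low in Zhx2 held more Cdkn1a than the others of their genotype, and the low Ncoa5+/- livers likewise.

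The next by p were the glutamate receptor gene Gria3, which rose by 4.68 on the log2 scale, the p53 target Phlda3 (5.11), cyclin D1 gene Ccnd1 (1.59) and the death receptor genes Eda2r (4.87) and Tnfrsf10b (3.52). The uncharacterized 1700007K13Rik (4.47) and the membrane protein gene Ly6e (1.90) also rose. Of 21 p53 targets tested, 14 rose and 0 fell. None of the 17 Mup genes and none of the 5 known Zhx2 targets passed, which at 0.651% over all genes is near the background. Hcn3, the channel gene of the series title, was at 674, 498, 1117 and 890 in Ncoa5+/- 1, 4, 2 and 3, against 440, 262, 271 and 423 in wild type 1, 2, 3 and 4 (log2 1.16 ± 0.24, limma adjusted p = 0.095).

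Of the 99 genes that passed for the genotype, 4 were also counted between the sets, beside 1.57% of all genes tested. Both sets hold both genotypes, so a large genotype difference can keep a gene from being counted, and this overlap carries no test. Fndc10 and Unc119 were higher in the low set (log2 2.09 and 1.63) and rose in Ncoa5+/- (1.16 and 0.64, limma adjusted p = 0.0451 and 0.0296). Ugt3a1 and Dact2 were lower in the low set (log2 -2.68 and -1.18) and fell by 1.12 and 0.73 in Ncoa5+/- (adjusted p = 0.0459 and 0.0466). Dact2, Fndc10 and Unc119 fall outside the rule for named genes and were chosen after their values were seen.

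The 8 Tip30+/- livers, all with Zhx2 of 167 or more, lay mostly with the normal set. Of the 238 counted genes other than Zhx2, 101 (42.4%) had all 8 of these livers on the normal side of the midpoint between the sets. Another 27 had at most 4 there, which were 25 of the 133 higher genes and 2 of the 105 lower ones. Per liver, 71.8% to 93.3% of these genes lay on the normal side. The share was 71.8% in Ncoa5+/-Tip30+/- 2, which had the least Zhx2 of the 8 (167), and 93.3% in Tip30+/- 1, which had the most (431). It did not follow Zhx2 throughout, with 72.3% in Tip30+/- 3 at a Zhx2 of 271 and 83.6% in Ncoa5+/-Tip30+/- 1 at 420. By genotype it was 71.8% to 83.6% in Ncoa5+/-Tip30+/- and 93.3%, 91.6%, 72.3% and 90.3% in Tip30+/- 1 to 4. Livers with 0.593% or more of reads at the ribosomal RNA loci had 71.8% to 83.6%, and those with 0.169% or less 78.2% to 93.3%. The part of Zhx2, the genotype and these loci was not tested. The 10 counted Mup genes together ran from 1188 to 19902 in these livers, so all 8 were above the low set's highest sum of 297.

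In those 8 livers each gene was tested for a slope on log2 Zhx2, with the Ncoa5 genotype as a term. In limma 0 of 15306 genes passed at an adjusted p under 0.05, and 468 (3.06%) had an unadjusted p under 0.05. By edgeR 0 passed, and by DESeq2 4, Eda2r and the Mup pseudogenes Mup-ps1, Mup-ps10 and Mup-ps13. Without Ncoa5+/-Tip30+/- 1 limma passed 3, Cox6b2, Nlrp12 and Nnmt. The slopes of smallest p were those of Mup-ps1 (2.06 ± 0.36 per log2 unit of Zhx2, unadjusted p = 0.000163), H19 (-2.58 ± 0.50, 0.000351), the matrix protein gene Spp1 (-0.82 ± 0.17, 0.00066) and Carmil1 (0.88 ± 0.19, 0.000803). H19 was at 56.4, 53.7 and 17.5 in Ncoa5+/-Tip30+/- 2, 3 and 4, where Zhx2 was 167, 227 and 242, and at 2.56 to 8.19 in the other 5 livers, where Zhx2 was 271 to 431.

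Of the counted genes with a slope, 170 of 209 (81.3%) leaned the same way with Zhx2 in these 8 livers as between the sets, against 8461 of 14961 (56.6%) of all genes. An unadjusted p under 0.05 was seen in 35 of the 209 and 454 of the 14961. Genes vary together and the Zhx2 range here was narrow, so these shares carry no test. Mup3 had a slope of -0.65 ± 0.15 (unadjusted p = 0.00141), not past the threshold over all genes. Sult3a1 (0.04 ± 0.48) and Elovl3 (-0.15 ± 1.07) had slopes smaller than their errors.

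**Figure D5:**
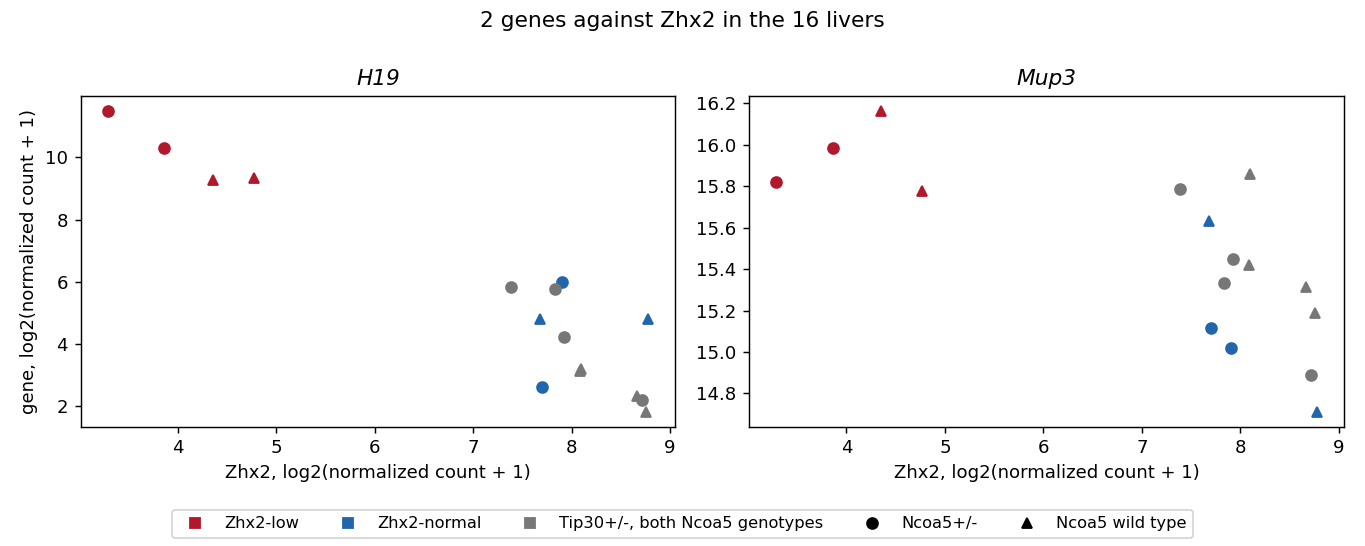
H19 and Mup3 against Zhx2, each as log2 of the normalized count plus 1, in the 4 low, 4 normal and 8 Tip30+/- livers, with circles for Ncoa5+/- and triangles for Ncoa5 wild type. The low set stands alone at the left, with H19 of 615 or more and Mup3 of 56205 or more, a level that Mup3 also reached in Tip30+/- livers (highest 59431).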

How the data were processed

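The authors deposited 1 table of DESeq2-normalized signal values (reads of a gene over a size factor of its library) for 30199 genes in 16 livers. Reads were trimmed with Trimmomatic 0.36, aligned with STAR 2.6.0c to GRCm38 and normalized with DESeq2 1.28.1, per the submitters' processing notes. The counter and annotation release were not stated. The protocol names no strand marking, so reads of genes that overlap on opposite strands cannot be told apart. Within a tolerance of 1e-04, 100% of values in each liver were multiples of the value of 1 read, which gave whole reads. No pair of the 8 livers was a copy (lowest chi-square per gene 20.2).

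Symbols came from the table (18821) or a gene table (11328), and 50 genes are known by identifier only. Positions come from GENCODE M21 (GRCm38). Some genes and sequences are not reported here.

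Genes with a mean of at least 10 were fitted with limma 3.58.1 (trend and robust) on log2(value + 1), so differences of low genes are understated. Tests were 2-sided and p-values were adjusted by Benjamini-Hochberg over every gene tested. Alternatives used edgeR 4.0.16 and DESeq2 1.42.0 on the whole reads, in R 4.3.3. The fits were tested on simulated data. The members, 37 gene lists (587 genes, 535 tested) and the named-gene rule were chosen with earlier results of these data known. That rule names the 12 highest and 12 lowest counted genes whose higher set averaged 50 or more, leaving out pseudogenes and predicted genes, the markers, up to 4 counted members of each list, and the genes of smallest p in each test. No litter or batch is labelled.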

Additional observations from a re-analysis of the deposited data

Results flagged for a closer look

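In 112 sets of 4 livers, from 56 named genes in both sets, 6 held 1 liver set far apart from the other 3, by a gap of over 0.829 of the range on the log2 scale. Chance alone sets 1 liver apart in about 5% of such sets. In the low set Mup1 was at 34.9 in Ncoa5+/- 1 and at 6.14 to 7.36 in the others, and Cidec at 178 in Ncoa5+/- 4 and 108 to 117 in the others. In the normal set Amy2a5 was at 4.07 in Ncoa5+/- 2 and at 0 in the others. Also in the normal set, Snx20 was at 9.46 in wild type 4 (others 35.6 to 45.8), Bhlhe41 at 189 in wild type 3 (others 87.6 to 98) and Lrat at 198 in Ncoa5+/- 3 (others 488 to 555).

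For 3 named genes the low livers lay on opposite sides of the normal livers in the 2 genotypes. The interaction, Ncoa5+/- minus wild type, was 2.93 ± 0.56 for Afp, 2.23 ± 0.35 for Spry4 and -1.59 ± 0.69 for the cholesterol synthesis gene Sqle. None passed in limma over all genes (adjusted p = 0.769, 0.481 and 0.801).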

How the results depend on the processing

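No paired analysis was possible because each liver came from a different mouse and the labels name no pairs. The count of 239 genes between the sets was 430 with no filter on low values, 142 with a mean of at least 50 and 432 at 1.5-fold. With the tag range as a term it was 230. It was 455 within Ncoa5+/-, 1019 within wild type, and 768 and 1252 within tags under and over 4300. With 2 against 2 or 1 against 3 livers, fewer values must not overlap. Leaving out 1 liver gave 247 to 429 genes, of which 215 to 231 were among the 239. The 99 genes of the Ncoa5 genotype were 162 with no filter, 58 with a mean of at least 50, 174 with the tag range as a term, 355 by DESeq2, 56 without the Zhx2 term, and 48 to 75 with 1 liver left out. The interaction count of 0 was 5 with no filter (among them Mt1, Mup-ps12, Pcp4l1 and Spry4), 37 by DESeq2, and 0 to 10 with 1 liver left out. The slope count of 0 was 4 by DESeq2 and 0 to 3 with 1 liver left out. The cause of these shifts was not tested. Other pseudocounts, TMM and upper-quartile scaling and edgeR kept each count within 1.5 times. No named gene that was counted changed direction under any setting run. The counting rule fixes that direction within a genotype or tag range, with 1 liver left out and with other pseudocounts, so there it is no check. Several named genes that were not counted did change direction. Afp (log2 0.88 over the 8 livers) did so within wild type (-0.58) and within tags under 4300 (-0.13). Within tags under 4300 so did Cd8b1 (0.94 to -1.76), Col1a1 (0.58 to -0.87) and Krt7 (0.61 to -0.44), among others. Genes such as Iqca, Elovl3 and Sult3a2, with 2 or 3 reads in a set, have differences limited by depth.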
